A study of Danio rerio with 12 samples.

Results

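The cryptochrome and photolyase genes of the zebrafish were followed in 3 pannexin knock-out lines and their wild-type control. Members were the gene identifiers whose symbol is CRY1, CRY2, cry3a, cry3b, cry4, cry5 or cry-dash, a rule that uses no measured value. This gave 8 of 31261 genes counted, because 2 identifiers carry the symbol CRY1, and these are told apart by identifier. The larvae were 6 dpf (days post fertilization), whole and untreated, and the labels describe them as in light, while the colony was kept on a daily light-dark cycle. The groups were a TALEN-mediated panx1a knock-out (panx1a KO), a TALEN-mediated panx1b knock-out (panx1b KO), the TALEN-mediated double knock-out of both genes (double KO) and wild-type Tupfel long fin larvae (TL). Pannexin 1 forms ATP-permeable channels, and TALENs are designed nucleases. Each line gave 3 RNA-seq libraries, and the paper describes its libraries as coming from independent pools of larvae. Double KO replicates 2 and 3 were more alike than any other pair within a line, and whether they are fully independent was not tested. The panx1b line descends from a single founder carrying one frameshifting deletion, and each genotype is 1 line. The hour of collection is not given in the sources used here, so genotype cannot be told apart from differences in rearing or collection time between lines, and transcripts of this family are known to cycle over the day.

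Cryptochromes are flavin-binding proteins that share a fold and an ancestor with photolyases, the enzymes that use light to repair ultraviolet damage in DNA. In vertebrates, cryptochromes pair with period (PER) proteins and repress the transcription factors CLOCK and BMAL1, which drive the cryptochrome and period genes themselves and so close the loop of the circadian clock. The zebrafish has more cryptochrome genes than mammals, and the peripheral tissues of its larvae set their clocks by direct exposure to light. In reporter assays with zebrafish proteins, the CRY1 pair, cry3a and cry3b act as repressors of CLOCK and BMAL1, whereas the proteins of CRY2 (formerly called cry3) and cry4 did not repress.

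Library totals ranged from 20581029 to 29259122 counts. Members were counted between 244 and 14216 times per library, so all 8 passed the minimum of 1 count in every library. Levels are given as CPM, counts scaled to library size after TMM normalization, and are compared between lines within a gene only, since no gene length was used. The SD of a member within a line was between 1.26% and 18.3% of its mean, with a median of 5.78%. PANX1 (ENSDARG00000025285) was at 3.85 to 4.80 CPM in panx1a KO libraries, 4.08 to 4.35 in double KO libraries and 9.10 to 9.84 in panx1b KO libraries, against 11.7 to 14.4 in TL libraries. PANX1 (ENSDARG00000014910) was at 7.52 to 8.83, 3.65 to 4.75 and 5.82 to 7.10 CPM in the panx1a KO, double KO and panx1b KO libraries, against 4.69 to 6.93 in TL. Both pannexin ohnologs carry 1 symbol, so which is panx1b is not settled here and these levels do not check the panx1b label. Genes were called at a Benjamini-Hochberg adjusted p under 0.05 together with a p under 0.001, in edgeR's quasi-likelihood test over all genes, and every adjusted p given is from that test. With 3 libraries against 3, an exact permutation test of 1 gene cannot go below p = 0.1. In whole larvae, fewer cells of a type and less RNA per cell cannot be told apart.

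**Figure D1:**
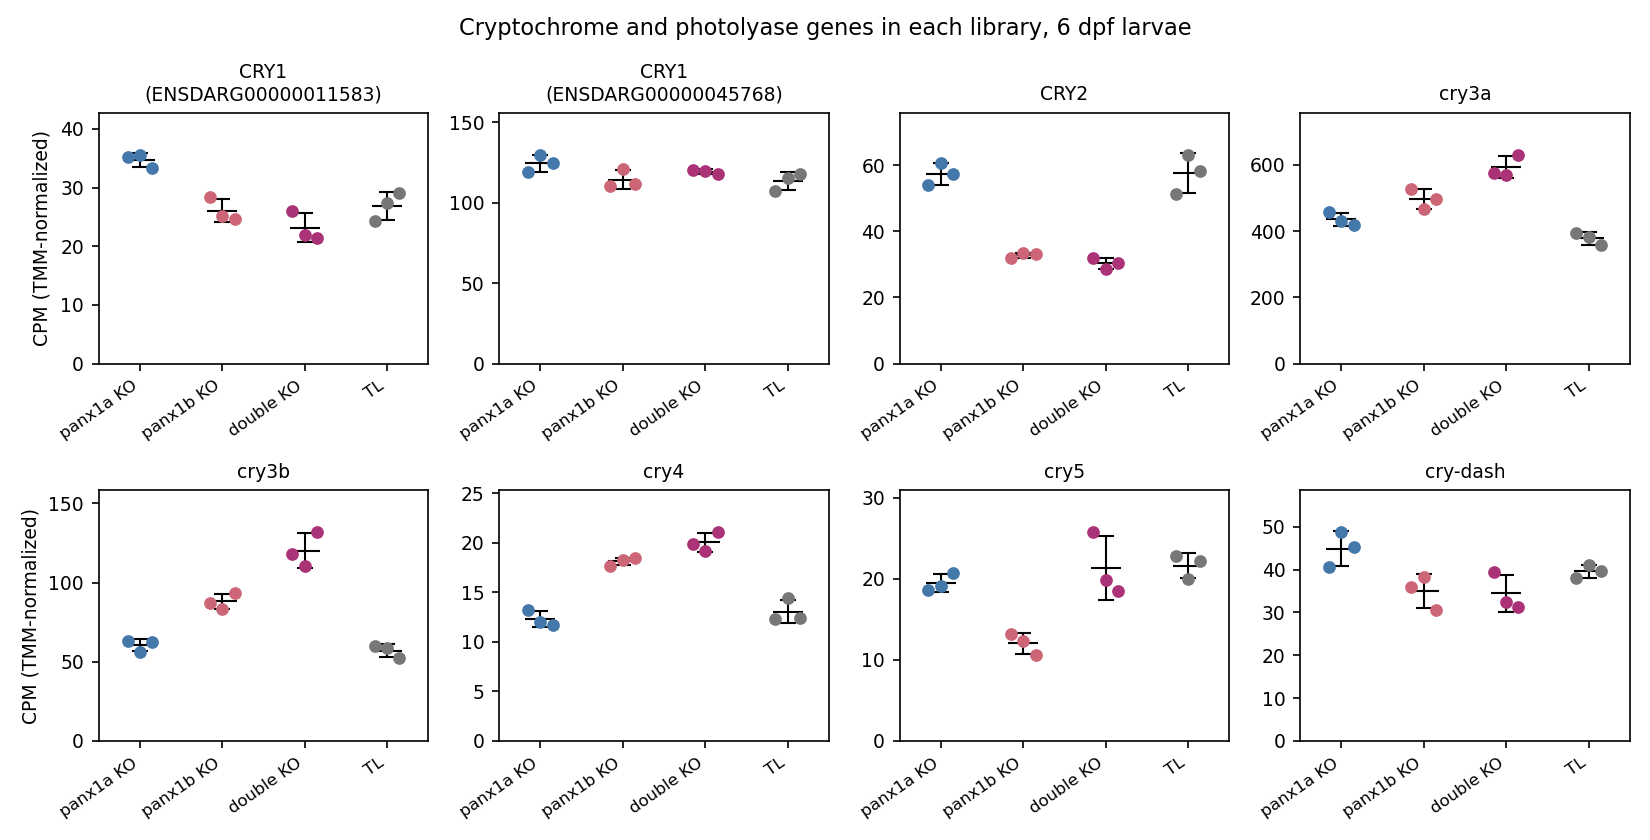
TMM-normalized CPM (vertical axis, starting at 0) of the 8 members in each library, with panx1a KO, panx1b KO and double KO left of TL. Points are libraries, and the cross-bars and whiskers are the mean and SD of 3 libraries. CRY2 is low in panx1b KO and double KO, cry3b is highest in double KO, and cry5 is low in panx1b KO only.

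Against TL, members were called in panx1b KO and double KO. In panx1a KO larvae none of the 8 members passed both cut-offs, where 5.18% of all genes tested did, so 0 of 8 is near that share. At an unadjusted p under 0.05 edgeR gave 1 member there, CRY1 (ENSDARG00000011583), and DESeq2 with both cut-offs gave 0. The share of all genes at that unadjusted p was not computed. In panx1b KO larvae, CRY2 and cry5 fell and cry3b rose (2.80% of all genes rose and 3.16% fell). In double KO larvae, CRY2 fell and cry3a, cry3b and cry4 rose (2.81% of all genes rose and 5.28% fell). The 3 knock-out libraries did not overlap the 3 TL libraries for 3 of 8 members in panx1a KO (28.4% of all genes), 5 of 8 in panx1b KO (29.6%) and 4 of 8 in double KO (35.4%). The median log2 fold change of the 8 members was 0.109, -0.01 and 0.027 in panx1a KO, panx1b KO and double KO. Over all genes it was -0.005, 0.011 and 0.001. In panx1b KO and double KO, members were called in both directions. The 3 comparisons share the TL libraries and are given side by side.

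**Figure D2:**
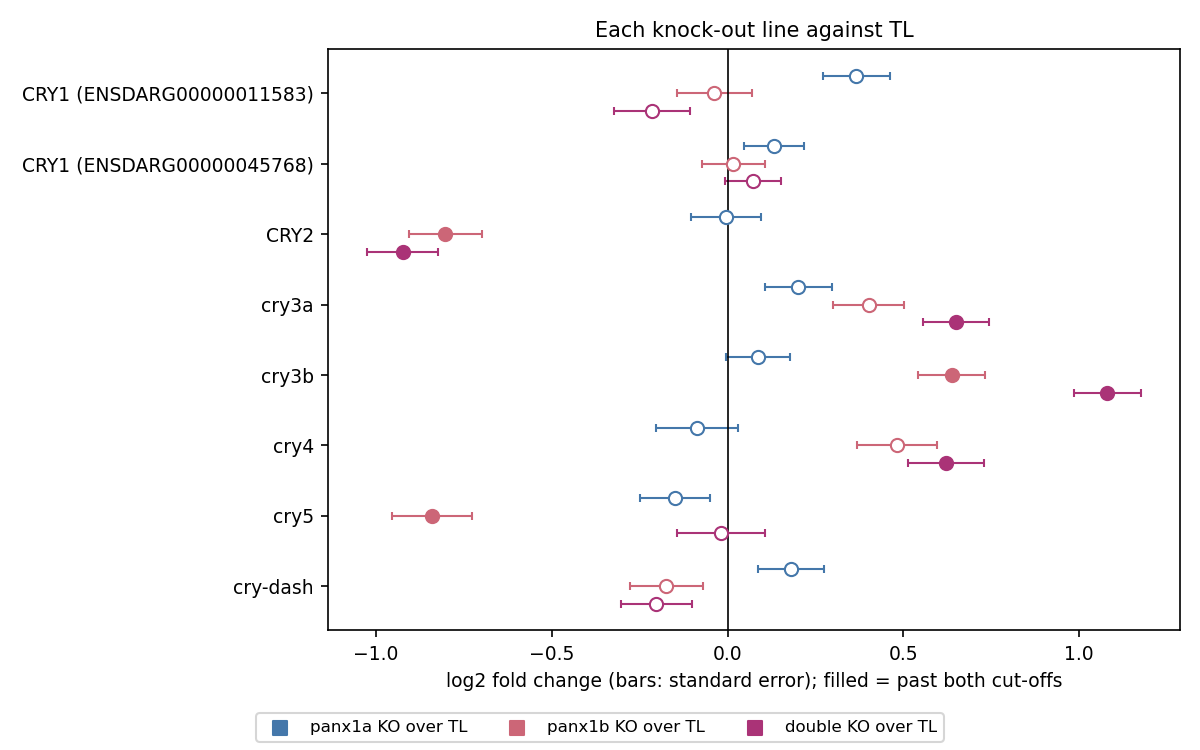
Log2 fold change (horizontal axis) of each member in panx1a KO, panx1b KO and double KO over TL, from edgeR, with bars of 1 standard error. Filled points passed both cut-offs. CRY2 lies at -0.80 and -0.92 in panx1b KO and double KO, while cry3b lies at 0.64 and 1.08.

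CRY2 was lower in the lines lacking panx1b. It was at 32.0, 33.4 and 33.0 CPM in the panx1b KO libraries, 31.8, 28.6 and 30.4 in the double KO libraries and 54.0, 60.5 and 57.5 in the panx1a KO libraries, against 51.1, 63.1 and 58.2 in TL. All 6 libraries without panx1b were below all 6 libraries with it. The log2 fold change was -0.80 (SE 0.10, adjusted p = 0.000713) in panx1b KO over TL, where the level fell by 42.7%. It was -0.92 (SE 0.10, adjusted p = 0.000254) in double KO over TL and -0.92 (SE 0.09, adjusted p = 3.01e-05) in double KO over panx1a KO. These 3 calls held with each library left out in turn, the first between -0.89 and -0.73. In panx1a KO over TL it was 0.00 within an SE of 0.10 (adjusted p = 0.989), with overlapping libraries. The lowest lines, double KO and panx1b KO, did not overlap but were not separated by the test (-0.11, SE 0.09, adjusted p = 0.396).

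The repressor genes cry3a and cry3b (RefSeq lists cry2a and cry2b among their older names) were both called higher in double KO over TL. In panx1b KO over TL, cry3b was called and cry3a was not. Levels of cry3b were 118, 111 and 132 CPM in the double KO libraries, 87.2, 83.5 and 93.3 in panx1b KO and 63.0, 56.0 and 62.5 in panx1a KO, against 60.1, 58.4 and 52.5 in TL. No panx1b KO or double KO library overlapped TL or panx1a KO. The fold over TL was 2.11 in double KO (log2 1.08, SE 0.10, adjusted p = 6.68e-05) and 1.55 in panx1b KO (log2 0.64, SE 0.09, adjusted p = 0.00179). Over panx1a KO, the double KO was 1.99-fold higher (log2 0.99, SE 0.09, adjusted p = 3.24e-05). The double KO also exceeded panx1b KO (log2 0.45, SE 0.10, adjusted p = 0.00684). That last call did not pass without panx1b KO replicate 1 (0.44), panx1b KO replicate 2 (0.42) or double KO replicate 3 (0.38), or when libraries were scaled by size alone (0.44). In panx1a KO over TL, cry3b was at 0.09 (SE 0.09, adjusted p = 0.636).

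The member with the most counts, cry3a, was at 576, 570 and 631 CPM in the double KO libraries, 527, 468 and 496 in panx1b KO and 457, 431 and 418 in panx1a KO, against 394, 383 and 358 in TL. Its 4 lines followed each other without overlap in that order. The double KO was called over TL (log2 0.65, SE 0.09, adjusted p = 0.0013), a 56.8% increase. It was also called over panx1a KO (0.45, SE 0.10, adjusted p = 0.0124), but not without panx1a KO replicate 2 (0.44) or 3 (0.41), or double KO replicate 2 (0.47) or 3 (0.40). Neighbouring lines were not separated by both cut-offs: double KO over panx1b KO was 0.26 (adjusted p = 0.12), panx1a KO over panx1b KO was -0.19 (adjusted p = 0.239) and panx1a KO over TL was 0.20 (adjusted p = 0.232). In panx1b KO over TL it was 0.40 (SE 0.10, adjusted p = 0.0276), short of the p cut-off. DESeq2 and the fit of all 12 libraries called that difference, with 0.39 in each.

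The gene cry4, studied in birds as a candidate light-driven magnetoreceptor, was at 19.8, 19.2 and 21.1 CPM in the double KO libraries, 17.7, 18.2 and 18.4 in panx1b KO and 13.2, 11.99 and 11.7 in panx1a KO, against 12.3, 14.4 and 12.4 in TL. Every library lacking panx1b was above every library that has it. In double KO over TL the log2 fold change was 0.62 (SE 0.11, adjusted p = 0.00362), and the call was lost without TL replicate 3 (0.59) or double KO replicate 3 (0.58). Over panx1a KO it was 0.71 (SE 0.10, adjusted p = 0.000672) and held without each library. In panx1b KO over TL it was 0.48 (SE 0.11, adjusted p = 0.0204), which missed the p cut-off. That difference was called by DESeq2 (0.47), in the fit of all 12 libraries (0.47) and without TL replicate 2 (0.56).

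Reads of cry4 may not all be its own. In the RefSeq annotation of GRCz12tu, cry4 overlaps dennd2db, which follows cry3b on the same chromosome. The strand setting of the counting is not given in the sources used here. In double KO over TL, dennd2db was at -0.52 (adjusted p = 0.282) and zgc:153675, the gene before cry4, at 0.17 (adjusted p = 0.615), and neither was called. None of the family's 8 RefSeq genes lies on a chromosome of panx1a or panx1b.

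The ratio of members within a library does not depend on how libraries are scaled, and is compared between lines only. These ratios were chosen after the values were seen and are not tested. The counts of cry3b over CRY2 averaged 3.97 (3.71 to 4.33) in double KO, 2.69 (2.50 to 2.83) in panx1b KO and 1.06 (0.926 to 1.17) in panx1a KO, against 1.00 (0.901 to 1.18) in TL. The counts of cry4 over CRY2 averaged 0.661, 0.552 and 0.215 in double KO, panx1b KO and panx1a KO, against 0.227 in TL. Lines lacking panx1b stood apart from the other lines in both ratios, and panx1a KO overlapped TL.

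**Figure D3:**
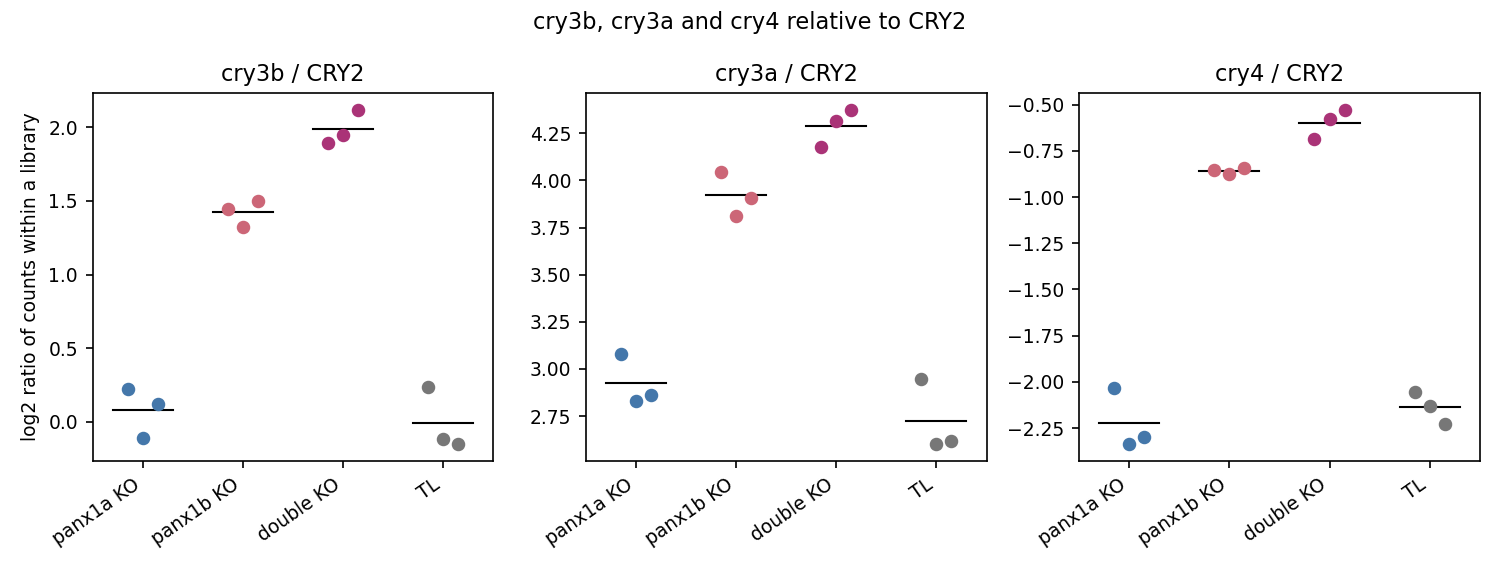
Log2 ratio of counts (vertical axis) of cry3b, cry3a and cry4 to CRY2 within each library, with the knock-out lines left of TL, points for libraries and lines for the mean of 3. The cry3b ratio averages 1.99 in double KO, 1.42 in panx1b KO and 0.08 in panx1a KO, against -0.01 in TL.

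The photolyase gene cry5, whose enzyme repairs (6-4) photoproducts of ultraviolet light, was lower in panx1b KO than in every other line. It was at 13.2, 12.3 and 10.6 CPM in the panx1b KO libraries, 18.7, 19.1 and 20.8 in panx1a KO and 25.8, 19.8 and 18.4 in double KO, against 22.8, 19.9 and 22.2 in TL. The panx1b KO libraries overlapped no other library, whereas the other lines overlapped each other and double KO replicate 1 was the highest of all. In panx1b KO over TL the log2 fold change was -0.84 (SE 0.11, adjusted p = 0.00101), where the level fell by 44.1%. The double KO was higher than panx1b KO by 0.83 (SE 0.14, adjusted p = 0.00142), and panx1a KO was higher than panx1b KO by 0.70 (SE 0.11, adjusted p = 0.00144). The double KO over TL was at -0.02 (SE 0.12, adjusted p = 0.933), and panx1a KO over TL at -0.15 (SE 0.10, adjusted p = 0.415).

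Whether the effect of 1 knock-out depended on the other was tested as an interaction, the log2 fold change of double KO over panx1b KO minus that of panx1a KO over TL. Of the members, cry5 passed both cut-offs (0.98, SE 0.18, adjusted p = 0.00239), where 5.33% of all genes did. Loss of panx1b went with -0.84 for cry5 against TL, and with 0.13 (SE 0.12, adjusted p = 0.543) in the panx1a-null background. The interaction stayed called with each of 12 libraries left out, between 0.82 and 1.07. In RefSeq, cry5 overlaps foxred1, which was at -0.58 (adjusted p = 0.0166) in double KO over panx1b KO, where cry5 rose, and at 0.06 (adjusted p = 0.843) in panx1b KO over TL, where cry5 fell. For CRY2, whose decrease appeared in both backgrounds, the interaction was -0.11 (SE 0.13, adjusted p = 0.648), and for cry3b it was 0.36 (SE 0.13, adjusted p = 0.0926).

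**Figure D4:**
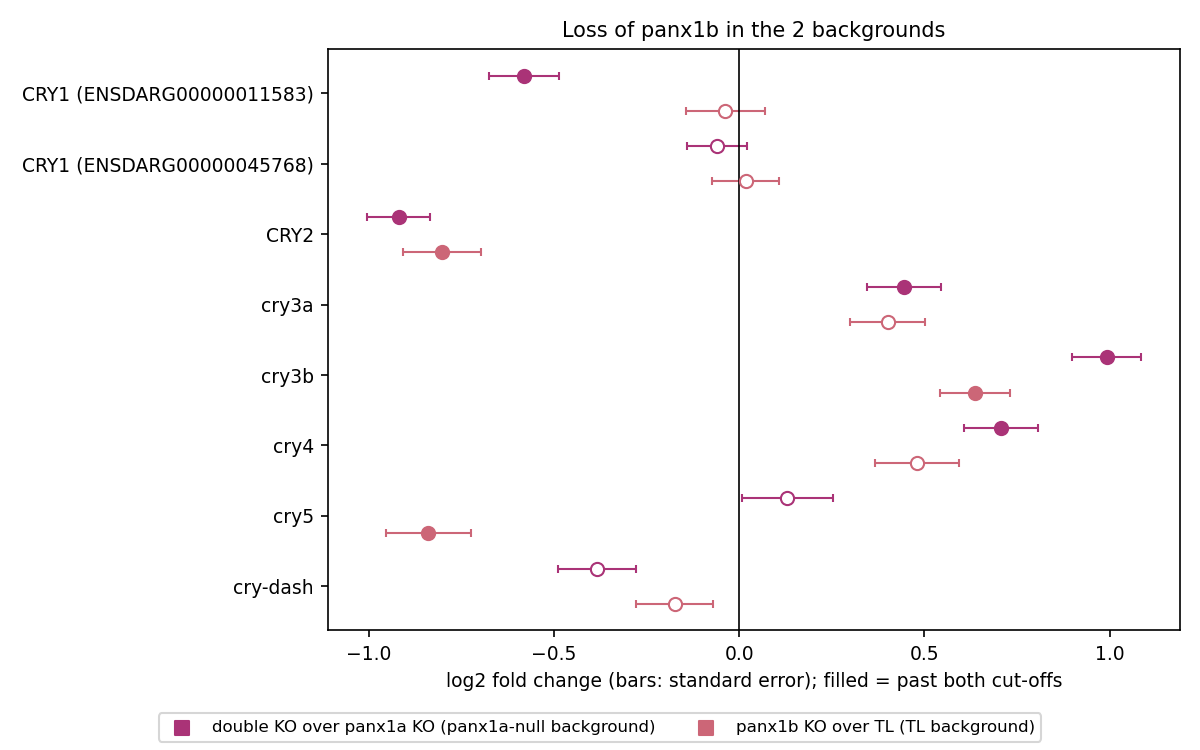
Log2 fold change (horizontal axis, bars of 1 standard error) of each member for loss of panx1b, as double KO over panx1a KO and as panx1b KO over TL. Filled points passed both cut-offs. CRY2, cry3a, cry3b and cry4 lie on the same side of 0 in both backgrounds, while cry5 lies at 0.13 and -0.84.

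Of the 2 CRY1 genes, 1 was called between knock-out lines and none against TL. In mammals CRY1 is a strong repressor of the clock, and one zebrafish CRY1 ohnolog is known for its induction by light. CRY1 (ENSDARG00000011583) was at 35.2, 35.6 and 33.3 CPM in the panx1a KO libraries, 28.4, 25.2 and 24.6 in panx1b KO and 26.1, 22.0 and 21.5 in double KO, against 24.4, 27.3 and 29.0 in TL. Its panx1a KO libraries were above every other library. Double KO over panx1a KO was at -0.58 (SE 0.10, adjusted p = 0.00205), and this call held without each library. The difference of panx1a KO over panx1b KO (0.41, SE 0.09, adjusted p = 0.0103) was kept in 1 of 6 fits with a library left out. It was lost without panx1a KO replicate 1 (0.39), 2 (0.39) or 3 (0.43), panx1b KO replicate 2 (0.39) or 3 (0.37), or with library size alone (0.41). Over TL, panx1a KO was at 0.37 (SE 0.10, adjusted p = 0.0369), short of the p cut-off. The interaction was -0.54 (SE 0.14, adjusted p = 0.0257), and it passed both cut-offs with library size alone (-0.58), with DESeq2 (-0.53) and without double KO replicate 1 (-0.63). The last of these fits keeps double KO replicates 2 and 3, the pair most alike within a line.

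CRY1 (ENSDARG00000045768) was not called in any of the 7 tests. It was at 119, 130 and 125 CPM in panx1a KO, 110, 121 and 112 in panx1b KO and 121, 120 and 118 in double KO, against 108, 115 and 118 in TL. Its fold changes over TL lay at 0.13, 0.02 and 0.07, each with an SE between 0.08 and 0.09. How reads matching both members of a duplicated pair were counted is not given in the sources used here, so the split between the CRY1 genes, and between cry3a and cry3b, is uncertain.

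The gene cry-dash, whose protein repairs ultraviolet lesions in single-stranded DNA, was also not called in any test. It was at 40.6, 48.8 and 45.4 CPM in panx1a KO, 36.0, 38.2 and 30.6 in panx1b KO and 39.5, 32.5 and 31.3 in double KO, against 38.1, 41.2 and 39.6 in TL. Double KO over panx1a KO was -0.38 (SE 0.11, adjusted p = 0.0332), without overlap of the libraries but short of the p cut-off, and it passed without double KO replicate 1 (-0.49). That fit keeps double KO replicates 2 and 3, the pair most alike within a line, so its spread may be too small.

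Members were also called between the knock-out lines. In double KO over panx1a KO, cry3a, cry3b and cry4 rose and CRY2 and CRY1 (ENSDARG00000011583) fell (2.58% of all genes rose and 3.76% fell). In panx1a KO over panx1b KO, CRY2 (0.81, SE 0.09, adjusted p = 7.77e-05), cry5 and CRY1 (ENSDARG00000011583) were higher, where 4.43% of all genes were. In the same comparison cry3b (-0.54, SE 0.09, adjusted p = 0.00161) and cry4 (-0.56, SE 0.10, adjusted p = 0.00308) were lower, where 4.45% of all genes were. The cry4 call was lost without panx1a KO replicate 3 (-0.54), which left 3 of the 5 members called. In double KO over panx1b KO, cry3b and cry5 were higher, where 3.84% of all genes were, and without the 3 libraries named above for cry3b 1 member was called.

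The proteins that cryptochromes bind or repress were examined as a list of 15 clock genes. In panx1a KO over TL 0 passed in edgeR, where 5.18% of all genes did. At an unadjusted p under 0.05 there were 6, and DESeq2 called 1. Over all genes DESeq2 called 749 higher and 953 lower, and the share at that unadjusted p was not computed. In panx1b KO, 2 of 15 rose and 6 fell, where 2.80% of all genes rose and 3.16% fell (median -0.091, against 0.011 over all genes). In double KO 3 of 15 rose and 6 fell, where 2.81% of all genes rose and 5.28% fell (median 0.14, against 0.001). The period gene PER1 (ENSDARG00000056885) was at -1.62 in panx1b KO and -1.46 in double KO (adjusted p = 1.1e-05 and 6.28e-05). The other PER1 gene (ENSDARG00000012499) was at -0.78 and -1.14 (adjusted p = 0.00127 and 5.47e-05). Its interaction was called (-0.64, SE 0.13, adjusted p = 0.00572). The CLOCK inhibitor genes cipca (-2.05 and -0.88) and ciarta (-1.01 and -1.11) also fell in both lines, and for cipca the interaction was called (1.16, SE 0.19, adjusted p = 0.00126). BMAL1 (ENSDARG00000035732), the activator, rose by 0.48 and 0.59 (adjusted p = 0.0103 and 0.00404). The other BMAL1 gene (ENSDARG00000006791) was at 0.44 in panx1b KO (adjusted p = 0.0183), short of the p cut-off. In double KO it rose by 0.60 (adjusted p = 0.00397). The paper's RT-qPCR of panx1b knock-out larvae reported bmal1a and bmal1b as lower, the opposite direction. The paper presents these decreases as also seen in its own RNA-seq analysis of the panx1b line, done by transcript. Its RT-qPCR also reported cry5, cry1a, cry1b and clock2 (npas2) as lower, and gave lower cry2 and cry3b values that were not significant. By symbol, cry5 (-0.84) and CRY2 (-0.80) also fell here in panx1b KO over TL, whereas cry3b rose (0.64). The paper's cry5 decrease was larger than here. It lists the same RefSeq entry for its cry1b and cry2 primers, so the CRY2 match is uncertain. In panx1b KO over TL, npas2 was at 0.28 (adjusted p = 0.116), not called. Neither CRY1 gene was called in that comparison (-0.04 for ENSDARG00000011583 and 0.02 for ENSDARG00000045768).

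Zebrafish cryptochrome and photolyase genes are known to be induced by light through D-box elements, which PAR bZIP factors and NFIL3 proteins bind. Of 17 light-induced and D-box genes tested, 0 passed in panx1a KO (4 at an unadjusted p under 0.05 in edgeR, and 1 called by DESeq2), 1 rose and 6 fell in panx1b KO (median -0.338, against 0.011 over all genes), and 3 rose and 4 fell in double KO (median -0.107, against 0.001). Over all genes, 2.80% rose and 3.16% fell in panx1b KO, and 2.81% rose and 5.28% fell in double KO. The share of all genes at the unadjusted p was not computed. The PAR bZIP genes dbpa (-1.01 and -0.98) and dbpb (-1.14 and -0.97) fell in panx1b KO and double KO, and nfil3-5 rose (0.63 and 1.29). FOS fell in panx1b KO (-1.28, adjusted p = 0.00908) but was at -0.04 in double KO (adjusted p = 0.924). Of 28 tested genes for ultraviolet repair other than the members, 1 fell in panx1a KO, 1 fell in panx1b KO, and 2 rose and 2 fell in double KO. Over all genes 5.18% were called in panx1a KO, and the shares for panx1b KO and double KO are those just given. In panx1a KO this was PCNA, the sliding clamp of DNA replication, at -1.69 (adjusted p = 8.47e-05). In panx1b KO it was ercc5, a nuclease of excision repair, at -0.47 (adjusted p = 0.0094). In double KO, the damage recognition genes XPC (0.56) and rad23ab (0.45) rose, and PCNA (-0.76) and the DNA ligase gene LIG1 (-1.07) fell. The interaction was called for 2 of these 28 genes, where 5.33% of all genes were called. They were rad23ab (0.88, SE 0.12, adjusted p = 0.000286) and ercc5 (0.71, SE 0.13, adjusted p = 0.00239). The CPD photolyase gene cpdp was not called in any line (0.25, 0.13 and 0.39 in panx1a KO, panx1b KO and double KO over TL), and its interaction was 0.01 (SE 0.13, adjusted p = 0.986).

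Across the 12 libraries, the genes whose log2 CPM followed each called member most closely were sought among 20053 genes, as a description, since the libraries fall into 4 lines. CRY2 was followed by BHLHE41 (Pearson r = 0.983), dbpa (0.980) and si:ch211-113a14.9 (0.979). For cry3b they were rorcb (0.975), nfil3-5 (0.974) and CYTH3 (0.963), and for cry3a they were rorcb (0.963), MSI1 (0.954) and PKHD1L1 (0.937). For cry4, RCOR3 (0.979) and BMAL1 (ENSDARG00000035732, 0.974) were among them. For cry5 they were LDHB (0.973), TWF2 (0.960) and NENF (0.952).

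Tissue markers differed between the pools as well. The summed level of 6 skin markers was 16010 to 22250 CPM in panx1b KO and 14100 to 19230 in double KO, without overlap with TL, and 12040 to 16180 in panx1a KO, against 12030 to 13900 in TL. The only skin marker called in panx1b KO was cyt1, which rose (1.37, adjusted p = 0.00102). In double KO it was epcam, which fell (-0.67, adjusted p = 0.00267). The 13 photoreceptor and pineal markers summed to 898.7 to 1161 CPM in panx1b KO, 961.5 to 1324 in double KO and 651.4 to 951.4 in panx1a KO, against 788.8 to 1059 in TL. The 9 liver markers were at 1850 to 2177 CPM in panx1b KO, 1709 to 2172 in double KO and 1166 to 1534 in panx1a KO, against 1400 to 1851 in TL. The 4 blood markers were at 98.78 to 116.7 CPM in double KO, 78.54 to 100.6 in panx1a KO and 67.34 to 72.49 in panx1b KO, against 62.15 to 75.4 in TL. Of them, hbae1.1 was called in panx1b KO (1.78, adjusted p = 0.0132) and hbae3 in double KO (0.75, adjusted p = 0.000891). The 5 exocrine pancreas markers summed to 2942 to 3294 CPM in panx1a KO, 2711 to 4243 in panx1b KO and 2361 to 3726 in double KO, against 2146 to 2725 in TL. In panx1b KO, ela2 was called by edgeR (0.85, adjusted p = 0.0142), all 5 had an unadjusted p under 0.05, and DESeq2 called 4. Over all genes, DESeq2 called 860 higher and 1089 lower in that comparison. In panx1a KO, amy2a was called by edgeR (0.53, adjusted p = 0.0102), 3 had an unadjusted p under 0.05, and DESeq2 called 1. Over all genes, DESeq2 called 749 higher and 953 lower there. For neither line was the share of all genes at that unadjusted p computed. The 3 muscle markers overlapped TL in every knock-out line. No listed marker was at 0 in every library. Their part in the values of the family was not tested.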

How the data were processed

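RNA-seq of 12 libraries of 6 dpf whole larvae, 3 each of panx1a KO, panx1b KO, double KO and TL, was analysed. Deposited by the authors were unnormalized whole-number counts for 31261 Ensembl genes in every library, from a strand-marking kit (NEBNext Ultra II Directional). The submitters' processing notes name Trim Galore 0.4.4, TopHat2 2.0.11, HTSeq 0.6.1p2 and danRer11, whereas the paper describes RSEM with bowtie2, and the counting's strand setting is not given in the sources used here. Groups were taken from the sample labels. Library pairs within a line differed by more than sampling noise, and all were kept. The chi-square per degree of freedom was 2.93 for double KO replicates 2 and 3, and 10.7 to 25.9 for every other pair. Double KO replicates 2 and 3 were thus the most alike, and whether they are fully independent was not tested.

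Counts were tested in R 4.3.3 with edgeR 4.0.16 (TMM, glmQLFit, glmQLFTest) keeping genes counted at least once in each library used, with Benjamini-Hochberg adjustment over all genes tested. Each pairwise fit held its own 6 libraries, and the interaction fit held all 12. Calls required an adjusted p under 0.05 and a p under 0.001, the cut-offs of the study. The SE of a fold change was obtained by dividing its size by the square root of F. The procedure was also run on simulated counts of independent libraries with the same spread for every gene. That setting does not cover libraries as alike as double KO replicates 2 and 3, or lines of unequal spread. P-values measure the spread between pools only.

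The members and gene lists were chosen with earlier results of these data known. All members are named. For each member called against TL, the 3 genes with the largest Pearson r over the libraries (mean of at least 1 CPM) are named, and of each list at most 6 called genes. A list of genes for cryptochrome turnover, and 1 gene that followed cry4, are not reported here. Symbols matched 28223 identifiers. RefSeq (GRCz12tu) was used only for gene order, overlap, chromosome and older names. Promoter motifs and protein identity were planned and not analysed here. Alternatives were DESeq2 1.42.0, its size factors, library size alone, no minimum count, at least 10 counts, the adjusted p alone, a replicate block, a single fit to all 12 libraries, and leaving out 1 library at a time. Figures were drawn with matplotlib 3.10.9.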

Additional observations from a re-analysis of the deposited data

Results flagged for a closer look

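The change of cry5, the (6-4) photolyase gene, that went with panx1b loss differed between the backgrounds, with an interaction of 0.98 on the log2 scale (SE 0.18, adjusted p = 0.00239 edgeR, Benjamini-Hochberg). The log2 fold change was 0.13 in double KO over panx1a KO and -0.84 in panx1b KO over TL. Each genotype is 1 line, so genotype cannot be told apart here from differences in rearing or collection time.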

How the results depend on the processing

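Over the 8 members, 7 comparisons and the alternatives other than leaving out a library, 424 values kept their direction and side of the cut-offs, 12 gained a call, 3 lost one and 1 changed sign. The adjusted p alone gave 1 member in panx1a KO over TL (0 with both cut-offs). In panx1b KO over TL, DESeq2, the adjusted p alone and the fit of all 12 libraries each gave 5 members in place of 3. Library size alone gave 1 in place of 2 in double KO over panx1b KO. For the interaction, library size alone, DESeq2 and the adjusted p alone gave 2 in place of 1. The sign change was CRY2 in panx1a KO over TL, at 0.0207 with library size alone. With each library left out, members called were 1 to 2 in double KO over panx1b KO, 3 to 5 in panx1a KO over panx1b KO and 1 to 2 for the interaction. They were 3 to 4 in panx1b KO over TL and in double KO over TL, 4 to 6 in double KO over panx1a KO and 0 in panx1a KO over TL. The 6 in double KO over panx1a KO and the 2 for the interaction came without double KO replicate 1, which keeps the most alike pair. Values that crossed 0 when a library was left out were CRY2 in panx1a KO over TL (-0.0817 to 0.0667), CRY1 (ENSDARG00000045768) and CRY1 (ENSDARG00000011583) in panx1b KO over TL (-0.029 to 0.0403 and -0.1176 to 0.0152), cry5 in double KO over TL (-0.1642 to 0.074) and over panx1a KO (-0.0268 to 0.2243), and cry-dash in double KO over panx1b KO (-0.1234 to 0.0515). None of these was called. The cause was not tested. Over all genes, the adjusted p alone called 2214 to 4551 genes in a comparison, against 1292 to 2312 with both cut-offs, and leaving out a library gave 354 to 1750 genes in 1 direction, against 572 to 1359.

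Deviations of same-numbered libraries correlated between -0.201 and 0.373 and in no comparison above 0.1 for all 3 pairs, so the numbers were not taken to pair samples. With the replicate number as a block, cry3a in double KO over panx1a KO was at 0.45 (adjusted p = 0.0429) and no longer called, and no other member's call changed. The block gave 1494 genes higher in double KO over panx1b KO, against 953 without it. Of 6 libraries in a comparison, 1 to 4 correlated best with their own number.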
